A study of Rattus norvegicus with 58 samples.

Results

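The 40 genes examined mark macrophages and lymphocytes, and they were followed in liver and kidney of rats given 4-methylcyclohexanemethanol. They are markers of Kupffer cells (the resident macrophages of the liver), other macrophages, myeloid cells, T cells and B cells, with the class II genes left out. A probe set, the group of short probes that reads a transcript on the array, was taken as a member's when its only gene symbol was that of the member. Of the 40 genes, 36 had such a probe set, with 45 probe sets among them, out of 14217 genes and 31099 probe sets on the array. Marco, Vsig4, Timd4 and Spi1 had none and were not analysed here. The genes were divided by role into 5 receptors of Kupffer and resident macrophages, 7 macrophage surface and marker genes, 3 chains of complement C1q, 5 phagocyte enzymes and effectors, 6 myeloid signalling genes with integrins, 6 pan-leukocyte genes, 5 T cell genes and 3 B cell and plasma cell genes.

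4-Methylcyclohexanemethanol (MCHM), an alicyclic alcohol used in coal washing, was given by gavage for 5 days to male Harlan Sprague-Dawley rats. The doses were 0 (control), 0.1, 1, 10, 100, 300 and 500 mg/kg, and the labels record no genetic modification and no second agent in any group. Liver and kidney each gave 29 arrays, 5 of them controls and 4 per dose above 0, and the labels call these biological replicates, with 58 arrays in all. Nothing in the labels pairs the livers with the kidneys of individual animals, and no age is given.

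Macrophages arise from blood monocytes or from precursors that settle in organs before birth, and they depend on signals through the receptor encoded by Csf1r. In the liver, Kupffer cells lie in the sinusoids, where they take up particles, dying cells and bacterial products from portal blood and make much of the complement C1q. Lymphocytes carry antigen receptors built with the CD3 chains in T cells and CD79 chains in B cells, and plasma cells export antibody joined by the J chain. Genes such as Ptprc, which encodes the phosphatase CD45, are shared by nearly all leukocytes.

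The transcription factor PU.1, encoded by Spi1, binds purine-rich DNA with a GAGGAA core and is needed for myeloid and B cell development, so the promoters of the members were searched for these letters. The sequences are RefSeq promoter windows of rat assembly GRCr8, from 250 bases before to 50 bases after the gene start, written 5′ to 3′ in the direction of the gene. 4 of them are printed because Clec4a3, Laptm5 and Jchain were lower in liver at 500 mg/kg and because Cd53 has the longer form of the motif; this choice was made after the values had been seen. Capitals mark GAGGAA or its reverse complement TTCCTC.

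Clec4a3, chr4:157886508-157886807, + strand: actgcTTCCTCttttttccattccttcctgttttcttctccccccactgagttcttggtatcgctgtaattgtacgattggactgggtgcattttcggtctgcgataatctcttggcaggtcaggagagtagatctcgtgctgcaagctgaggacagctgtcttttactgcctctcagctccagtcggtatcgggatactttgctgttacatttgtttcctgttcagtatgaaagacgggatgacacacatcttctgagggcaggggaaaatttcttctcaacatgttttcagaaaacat
Laptm5, chr5:148371630-148371929, + strand: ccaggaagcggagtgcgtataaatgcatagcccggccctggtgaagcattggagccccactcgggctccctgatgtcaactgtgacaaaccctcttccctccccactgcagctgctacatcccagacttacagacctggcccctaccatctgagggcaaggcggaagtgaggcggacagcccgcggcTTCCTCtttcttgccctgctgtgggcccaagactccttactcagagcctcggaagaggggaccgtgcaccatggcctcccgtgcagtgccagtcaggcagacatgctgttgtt
Cd53, chr2:197087847-197088146, - strand: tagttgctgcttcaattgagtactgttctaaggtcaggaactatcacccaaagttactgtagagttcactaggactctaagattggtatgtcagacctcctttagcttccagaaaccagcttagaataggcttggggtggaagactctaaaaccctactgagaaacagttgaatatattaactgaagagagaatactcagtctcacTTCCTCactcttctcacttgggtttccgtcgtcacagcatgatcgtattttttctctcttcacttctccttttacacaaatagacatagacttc
Jchain, chr14:19822726-19823025, + strand: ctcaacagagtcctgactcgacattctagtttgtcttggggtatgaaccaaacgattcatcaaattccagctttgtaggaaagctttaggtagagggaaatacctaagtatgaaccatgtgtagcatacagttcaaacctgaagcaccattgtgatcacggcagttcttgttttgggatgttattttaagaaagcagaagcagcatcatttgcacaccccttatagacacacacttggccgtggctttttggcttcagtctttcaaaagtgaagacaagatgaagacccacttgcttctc

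Counting the gene's first base as 0, the core began at -245 in Clec4a3, at -63 in Laptm5 and at -44 in Cd53, and the Jchain window held none. A promoter window was found for 30 of the 40 genes. GAGGAA stood on either strand in 17 of these 30 windows (56.7%), against 27.6% of all 33469 windows of the same length. The 17 genes were Adgre1, C1qb, Cd14, Cd2, Cd37, Cd3e, Cd53, Cd68, Clec4a3, Csf1r, Ctss, Cybb, Itgam, Laptm5, Lyz2, Marco and Ptprc. The longer GAGGAAGT, which contains the core, was found in 3 of the 30 windows, those of Cd37, Cd53 and Ctss, and in 2.42% of all windows. A match describes the letters in the window and says nothing of binding.

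Values are deposited log2 RMA values, in which a difference of 1 is a doubling; RMA summarises the probes of a set into 1 value. The median array value ran from 5.26 to 5.32 for liver and from 5.33 to 5.38 for kidney. A probe set was tested in an organ if at least 4 arrays there had it above their 40th percentile, and the brightest probe set stood for a gene. With this filter 33 members were tested in liver and 29 in kidney, the 29 being among the 33. Itgam, Cd37 and Cd3g passed in neither organ, and Cd163, Cd4, Cd8a and Cd79b did not pass in kidney. A transcript was called when limma's test gave a Benjamini-Hochberg adjusted p under 0.05 over all genes tested in the organ. These are whole-organ RNA samples, so fewer cells of a type and less RNA per cell cannot be told apart.

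The tissue labels were checked against defining genes. Albumin (Alb) had a median of 14.69 in liver and 4.80 in kidney, and Umod, the uromodulin of the thick ascending limb, had medians of 4.42 and 13.29. The Kupffer cell lectin Clec4f had a median of 10.50 in liver and 5.05 in kidney. The T cell genes Cd3e, Cd3g and Cd2 lay close to the filter in both organs, at 4.13 to 5.40 in liver and at 3.89 to 5.22 in kidney. In kidney, 2 arrays stood apart by their adipose genes: the mean over 7 such genes was 11.64 on array 3 at 300 mg/kg and 10.53 on array 3 at 500 mg/kg, against at most 6.53 on the others. 1 kidney control array had a mean of 7.39 over 4 hepatocyte genes, against a control median of 5.21.

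The first comparison, between the organs of control rats, gives the levels from which the doses start. Receptors of Kupffer cells and the C1q chains were far higher in liver than in kidney, whereas lysozyme and Cd48 were higher in kidney. Of the 33 members tested in either organ, 25 were higher in liver and 3 higher in kidney, 28 in all. The background is high: limma called 77.2% of 11788 genes between the organs, 35.7% higher in liver and 41.5% higher in kidney. The sources used here do not say whether both organs went through RMA together, and the part of any such offset was not tested.

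Clec4f, a galactose-binding lectin of Kupffer cells, ranged from 10.47 to 10.67 in liver controls and from 4.73 to 5.33 in kidney controls, a log2 difference of 5.58 (SE 0.14) or 47.7-fold. Cd163, the scavenger receptor for haemoglobin bound to haptoglobin, ranged from 7.28 to 7.47 in liver and read 3.20 to 3.40 in kidney, where it lay under the filter and so has no more than an upper bound. With the 40th percentile of each kidney array in its place, Cd163 was at least 6.45-fold higher in liver. Cd14, a co-receptor for bacterial lipopolysaccharide, was higher in liver by 3.56 (SE 0.18) on the log2 scale. The ranges of liver and kidney did not overlap for any of these 3 genes. Of the 25 members higher in liver, Cd163, Cd4, Cd8a and Cd79b did not pass the filter in kidney. They entered this comparison through liver alone. With the bound used for Cd163, the difference of means for Cd4 was 0.13 on the log2 scale. Its liver controls ran from 4.54 to 5.07, and the 40th percentile of the kidney arrays from 4.62 to 4.70. Cd4 is therefore not shown to lie above that level in liver. Cd8a was read here by another probe set than in the liver comparisons below.

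The 3 C1q chains, which together form the recognition molecule of the classical complement pathway, were higher in liver by 2.36 (C1qa), 2.40 (C1qb) and 2.11 (C1qc) on the log2 scale. Mpeg1, a pore-forming protein of phagocytes, was higher by 2.35, and Cd68, a lysosomal glycoprotein of macrophages, by 2.11. The macrophage receptors Adgre1 (known as F4/80) and Csf1r were higher by 1.66 (SE 0.13) and 1.34 (SE 0.09). Pan-leukocyte genes had differences of both signs. Cd53 and Ptprc were higher in liver by 0.69 and 0.47, and the others tested were below 0, as the next paragraph gives. Laptm5, a myeloid signalling gene, was higher by 0.34. Every gene named in this paragraph was called by limma, with adjusted p between 2.8e-25 and 0.000571.

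Lyz2, the lysozyme of macrophages, ranged from 10.66 to 10.79 in liver controls and from 11.52 to 11.99 in kidney controls, a log2 difference of -1.08 (SE 0.10). Cd48, a ligand of receptors on natural killer and T cells, was lower in liver by 1.14 (SE 0.12) on that scale, and Coro1a, an actin-binding protein of leukocytes, by 0.74 (SE 0.12). These were the 3 members called higher in kidney. The members not called were Ms4a1, Cx3cr1, Cd2, Cd3e and Lcp1, with log2 differences between -0.24 and 0.23. The plot of control differences shows this order from Clec4f to Cd48.

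**Figure D1:**
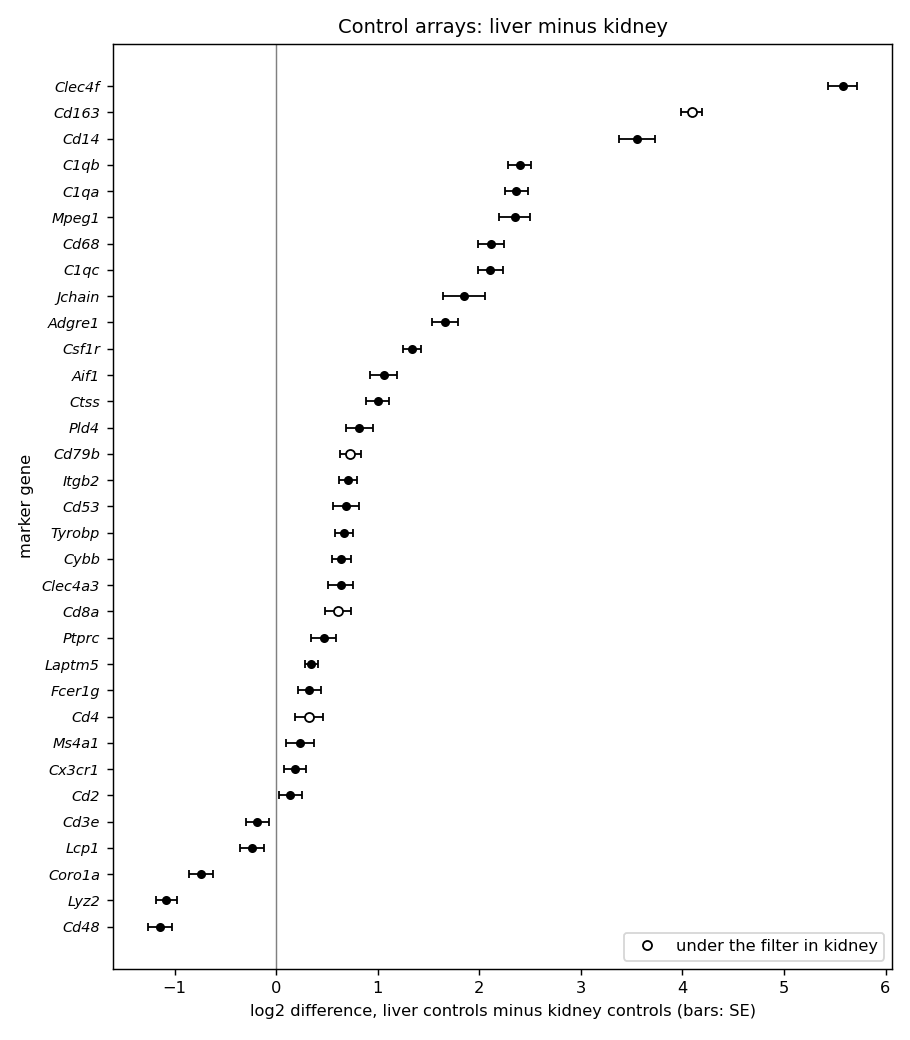
The horizontal axis is the log2 difference between liver controls and kidney controls (n = 5 each), with SE bars, for the 33 marker genes tested in either organ. Open points mark the 4 genes under the filter in kidney, whose measured difference there (4.09 for Cd163) is not a level against background. Clec4f at 5.58 lies farthest to the right, and Lyz2 at -1.08 and Cd48 at -1.14 farthest to the left.

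The next comparison asks which markers differed from control at each dose in liver. Most macrophage and pan-leukocyte genes had lower means at 500 mg/kg than in controls, whereas the T cell genes and the B cell genes Ms4a1 and Cd79b had differences of both signs. Of 33 members tested, 4 fell by limma's adjusted test: Clec4a3, Jchain, Laptm5 and Cd48. 0 rose. Over all genes tested 0.959% were called at this dose and 0.471% were called lower. At an unadjusted p under 0.05, 21 of the 33 were lower and 0 higher, against 7.24% of all genes lower. The log2 difference was below 0 for 28 of 33, with a median of -0.27, and the median over all 11264 genes was 0.0062. All 4 dosed arrays lay below all 5 controls for 5 members (the 4 called and Cd163), a pattern that 2.89% of all genes showed. The members were chosen with earlier results of these data known, and many vary together from array to array. Their counts beside the shares of all genes, here and below, are therefore a description and not a test.

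Clec4a3, a C-type lectin receptor of myeloid cells, read 6.59, 7.21, 6.73, 6.80 and 7.0 on the 5 control arrays and 6.09, 6.26, 6.30 and 6.39 on the 4 arrays at 500 mg/kg. The groups did not overlap, and the highest dosed array lay under the lowest control. Clec4a3 fell by 0.61 on the log2 scale (SE 0.12, 1.52-fold lower, limma adjusted p = 0.00876). Its group means were 6.79, 6.66, 6.72, 6.64 and 6.46 at 0.1, 1, 10, 100 and 300 mg/kg. The gene has 1 probe set on the array. It stayed called when each of the 9 arrays was left out in turn, with an adjusted p between 0.00546 and 0.0452. The call was lost with the 500 mg/kg and control arrays fitted alone and with the replicate number as a block, where the adjusted p reached 0.055.

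Jchain, whose product joins polymeric antibodies in plasma cells, read 6.33, 6.84, 6.27, 6.81 and 6.40 in controls and 5.5, 5.62, 6.02 and 5.52 at 500 mg/kg. The groups did not overlap. It fell by 0.87 on the log2 scale (SE 0.20, 1.82-fold lower, limma adjusted p = 0.0348), the largest fall among the members. At 0.1 mg/kg its mean was higher than control, at 7.05 ± 0.35 (SD, n = 4) against 6.53 ± 0.27 (SD, n = 5), with a limma adjusted p of 1.00. A second, dimmer probe set of Jchain did not show the fall: it read 4.43 to 4.76 in controls and 4.55 to 4.85 at 500 mg/kg, a log2 difference of 0.10 (SE 0.13). With the mean of both probe sets the difference was -0.39 and the call was lost (adjusted p = 0.217). The call held in 3 of the 9 fits that left out an array, those without control array 1 or 3 or dosed array 3, and the adjusted p reached 0.0997 in the others.

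Laptm5, a lysosomal membrane protein of blood cells, read 7.68, 7.76, 7.61, 7.73 and 7.68 in controls and 7.16, 7.41, 7.46 and 7.55 at 500 mg/kg. The dosed arrays were all lower and more spread than the controls. It fell by 0.30 on the log2 scale (SE 0.07, 1.23-fold lower, limma adjusted p = 0.0409), and its second probe set differed by -0.26 (SE 0.09). Cd48 read 8.37, 8.61, 8.56, 8.42 and 8.71 in controls and 8.10, 8.23, 8.23 and 8.36 at 500 mg/kg, with the highest dosed array just below the lowest control. Cd48 fell by 0.30 on the log2 scale (SE 0.08, 1.23-fold lower, limma adjusted p = 0.0495). Both calls lie near the threshold and depend on single arrays.

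**Figure D2:**
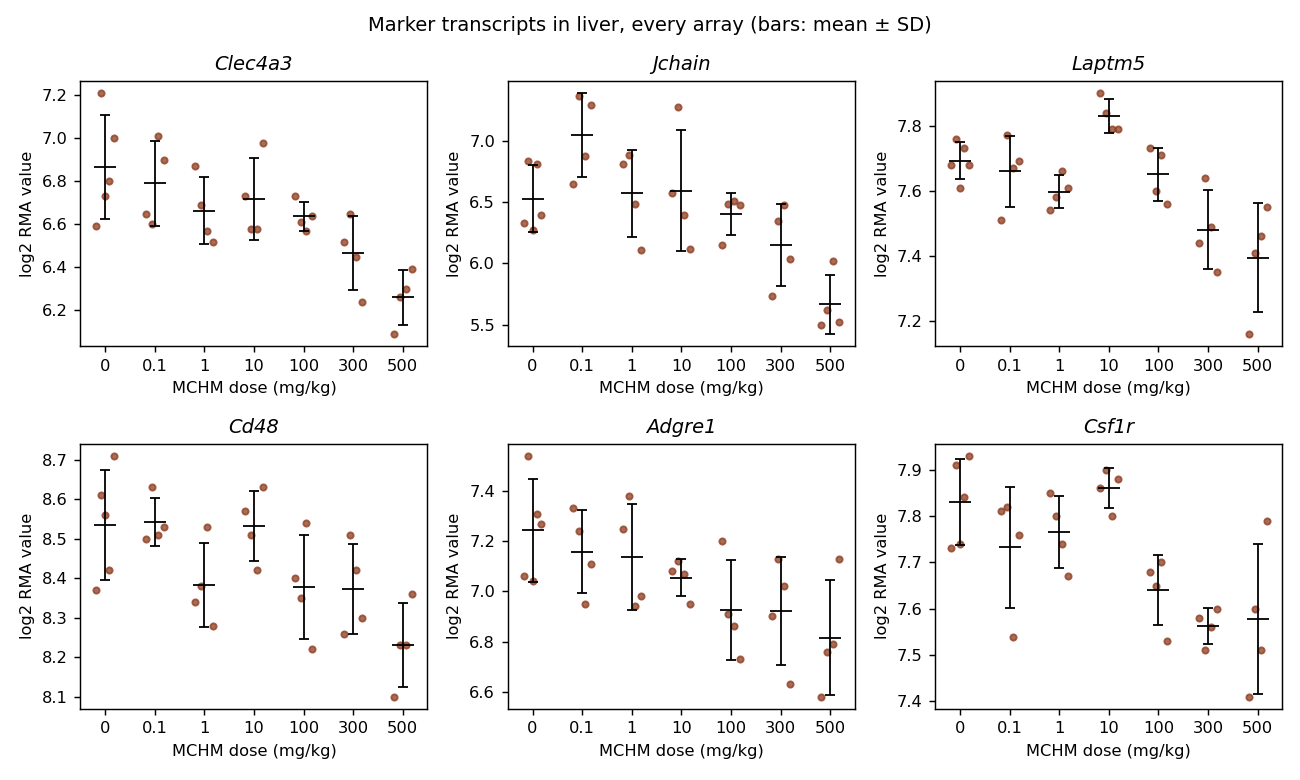
Each panel plots the log2 RMA value of a marker gene on every liver array (points) against MCHM dose in mg/kg, with mean ± SD bars (n = 5 at dose 0, n = 4 at the others). At 500 mg/kg the points of Clec4a3, Jchain, Laptm5 and Cd48 lie below all control points, while array 4 of Adgre1 (7.13) and Csf1r (7.79) lies within the control range.

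Leaving out single arrays changed how many members were called in liver at 500 mg/kg, and Clec4a3 was in every set. Over all genes tested the number called also moved, from 42 to 110 in these 9 fits, against 108 with every array. The count of members was 1, Clec4a3 only, without control array 2, 4 or 5 or without dosed array 1 or 2. It was 2 without dosed array 3, and 3 without control array 1 or 3. Without dosed array 4 it was 9, namely Adgre1, C1qa, Cd48, Clec4a3, Csf1r, Ctss, Fcer1g, Laptm5 and Lcp1. That array stood apart from the other 3 in the mean over the 33 members: the dosed arrays had means of 7.19, 7.33, 7.33 and 7.60, against 7.54, 7.67, 7.48, 7.65 and 7.59 in controls.

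Described by role, the 2 Kupffer cell receptors were lower in liver at 500 mg/kg without passing the adjusted test. Cd163 read 7.41, 7.47, 7.30, 7.34 and 7.28 in controls and 7.0, 7.02, 7.02 and 7.27 at 500 mg/kg, a log2 difference of -0.28 (SE 0.10, limma adjusted p = 0.182). The highest dosed array (7.27) lay just under the lowest control (7.28), and the other 3 were well below. Clec4f differed by -0.26 (SE 0.11, limma adjusted p = 0.271) and its groups overlapped.

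Among the 7 macrophage surface and marker genes, 1 fell (Clec4a3) and 5 were lower at an unadjusted p under 0.05. Adgre1 read 7.06, 7.54, 7.04, 7.31 and 7.27 in controls and 6.58, 6.76, 6.79 and 7.13 at 500 mg/kg, a log2 difference of -0.43 (SE 0.12, limma adjusted p = 0.0905). Csf1r read 7.73, 7.91, 7.74, 7.84 and 7.93 in controls and 7.41, 7.60, 7.51 and 7.79 at 500 mg/kg, a log2 difference of -0.25 (SE 0.07, limma adjusted p = 0.0838). In both genes dosed array 4 alone reached into the control range. Cd68 differed by -0.28 (SE 0.10), and Aif1, the calcium-binding protein known as Iba1, by -0.34 (SE 0.12), a value that its second probe set did not share (-0.05). Cd14 was the exception in sign, at 0.20 (SE 0.19), and Cx3cr1, the fractalkine receptor of monocytes and tissue macrophages, stood at -0.01 (SE 0.10).

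The C1q chains differed by -0.29 (C1qa), -0.19 (C1qc) and -0.10 (C1qb) on the log2 scale at 500 mg/kg, and 0 of 3 passed the adjusted test. C1qa read 9.80, 9.96, 9.94, 10.12 and 10.07 in controls and 9.45, 9.69, 9.72 and 9.91 at 500 mg/kg (limma adjusted p = 0.0905). Its first 3 dosed arrays lay below every control and array 4 did not. The 5 phagocyte enzymes and effectors were each below 0, with a median of -0.27 and 0 called. They ran from -0.32 for Pld4, a phospholipase D family protein of lysosomes, through Ctss (cathepsin S, -0.30), Cybb (the catalytic subunit of the phagocyte NADPH oxidase, -0.27) and Lyz2 (-0.19) to Mpeg1 (-0.12).

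The myeloid signalling genes had a median of -0.27 on the log2 scale, and 1 of 4 tested fell (Laptm5). Fcer1g and Tyrobp, the adaptors through which many activating receptors of myeloid cells signal, differed by -0.34 (SE 0.10) and -0.24 (SE 0.09). Itgb2, the common beta chain of leukocyte integrins, differed by -0.17 (SE 0.09). The pan-leukocyte genes had the lowest median of the 8 role groups, at -0.35: 1 of 5 fell (Cd48) and each of the 5 had an unadjusted p under 0.05. Lcp1, the actin-bundling plastin of leukocytes, differed by -0.46 (SE 0.14), Ptprc by -0.39 (SE 0.13), the tetraspanin Cd53 by -0.35 (SE 0.10) and Coro1a by -0.31 (SE 0.12).

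Among the lymphocyte genes in liver at 500 mg/kg, Jchain had the fall given above and the others had differences of both signs. The 4 T cell genes tested had log2 differences of 0.18 for Cd3e (a chain of the T cell receptor complex), 0.14 for Cd2 (an adhesion receptor), -0.21 for the co-receptor Cd4 and -0.23 for the co-receptor Cd8a, with a median of -0.03 and 0 called. Cd8a read 5.43, 4.98, 5.09, 5.39 and 4.47 in controls and 4.72, 4.47, 5.09 and 5.09 at 500 mg/kg, so that the groups overlapped (SE 0.20). The second probe set of Cd8a that passed the filter differed by -0.25 (SE 0.13). The B cell genes Ms4a1 (the surface protein CD20) and Cd79b (a chain of the B cell receptor) stood at 0.34 (SE 0.18) and 0.12 (SE 0.12) (limma adjusted p = 0.386 and 0.722). No test compared lymphocyte with macrophage genes.

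At 300 mg/kg 0 of the 33 liver members passed limma's adjusted test, where 0.0266% of all genes did. At an unadjusted p under 0.05, 7 were lower and 0 higher, against 4.7% of all genes lower: Csf1r, Laptm5, Clec4a3, Cd163, Adgre1, Tyrobp and Cd48. The median log2 difference was -0.13, with 25 of 33 below 0, and the median over all genes was -0.0074. Without array 1 at 300 mg/kg the median of the members was -0.08. For 3 members the 4 dosed arrays lay below all controls, as for 1.61% of all genes. Csf1r was one of them, with dosed arrays at 7.58, 7.51, 7.56 and 7.60 and a lowest control of 7.73 (log2 difference -0.27, SE 0.07, limma adjusted p = 0.248). Cd163 and Tyrobp were the others, at -0.29 (SE 0.10) and -0.20 (SE 0.09). This comparison and that at 500 mg/kg use the same 5 control arrays.

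At 0.1, 1, 10 and 100 mg/kg 0 members passed in liver, as did 0% of all genes at each of these doses. The members with an unadjusted p under 0.05 numbered 5, 1, 2 and 4 of 33 in that order. The shares of all genes were 4.1%, 5.83%, 6.4% and 3.68%. The 1 at 1 mg/kg and the 2 at 10 mg/kg therefore lay near or below the background. At 0.1 mg/kg, 4 of the 5 members were higher than control and 1 was lower. The median log2 difference at that dose was 0.02, with 21 of 33 above 0. Most of these 5 members thus went the opposite way to the falls at the highest dose. The members counted at 1 and 10 mg/kg were also higher, and the 4 at 100 mg/kg were lower. Ms4a1 differed most at the 3 lowest doses. It read 4.80, 4.80, 4.84, 5.23 and 4.89 in controls, 5.75, 5.64, 5.60 and 5.33 at 0.1 mg/kg and 5.68, 5.5, 6.23 and 5.44 at 1 mg/kg, with both dosed groups above all controls. The log2 differences were 0.67, 0.80 and 0.49 at 0.1, 1 and 10 mg/kg (SE 0.18 each), with limma adjusted p of 0.996, 0.350 and 0.718. At 100 mg/kg the 4 members were Pld4 (-0.35), Adgre1 (-0.32), Csf1r (-0.19) and Cd48 (-0.16), each with an adjusted p of 0.999.

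**Figure D3:**
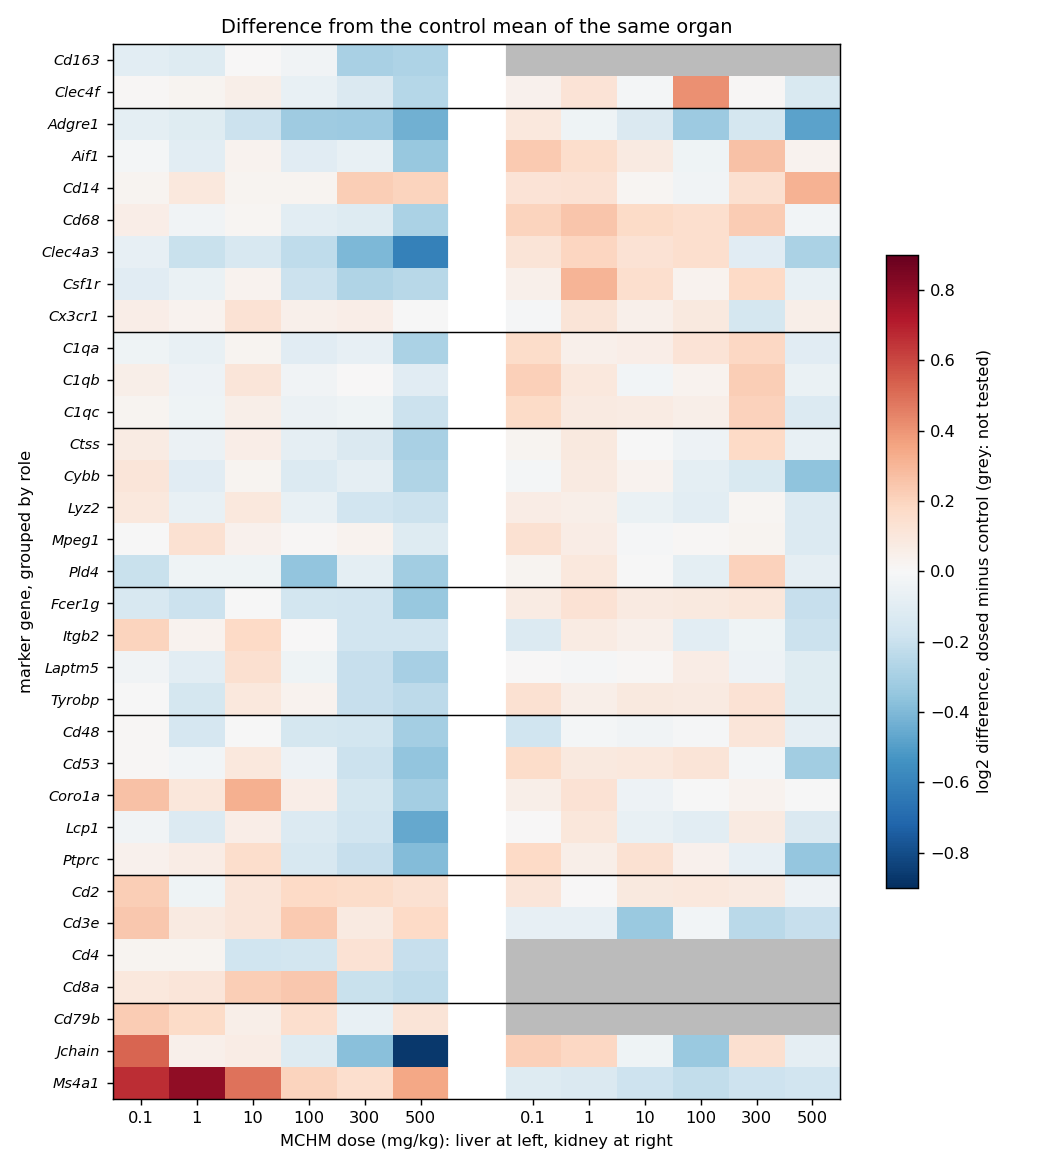
Colour gives the log2 difference from the control mean of the same organ for each marker gene (rows, grouped by role) and dose in mg/kg (columns), with liver at left and kidney at right, blue for lower, red for higher and grey for genes not tested. Blue fills most liver rows at 500 mg/kg from Cd163 to Ptprc, and Ms4a1 is red at 0.1 mg/kg (0.67) and 1 mg/kg (0.80).

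To ask which markers followed the dose, the dose rank (0 for control to 6 for 500 mg/kg) was fitted as a single term over the 29 liver arrays. Of 33 members 5 fell with the dose rank, and 0 rose: Clec4a3, Jchain, Adgre1, Csf1r and Cd48. Over all genes 1.85% were called and 1.17% were called lower. Clec4a3 fell by 0.09 per rank on the log2 scale (SE 0.02, limma adjusted p = 0.00349) and Jchain by 0.15 (SE 0.03, adjusted p = 0.0145). Adgre1 fell by 0.07 (SE 0.02, adjusted p = 0.0159), and Csf1r and Cd48 each by 0.04 (SE 0.01, adjusted p = 0.0262 and 0.0264). At an unadjusted p under 0.05, 23 of 33 members sloped down and 0 up, where 9.22% of all genes sloped down.

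The group means of Adgre1 were 7.25, 7.16, 7.14, 7.06, 6.93, 6.92 and 6.81 from control to 500 mg/kg, each at or below the one before. Those of Csf1r were 7.83, 7.73, 7.77, 7.86, 7.64, 7.56 and 7.58, with the 3 highest doses below the others. Cd48 was at 8.53, 8.54, 8.38, 8.53, 8.38, 8.37 and 8.23, with SDs from 0.06 to 0.14, so that neighbouring doses could not be ordered. The rank call of Clec4a3, Jchain and Adgre1 held with each of the 29 arrays left out in turn. Those of Csf1r and Cd48 were lost without control array 5 or array 1 or 3 at 500 mg/kg, which left 3 members called in each case. Over all genes tested, the number called ran from 80 to 255 in the 29 fits, against 208 with every array.

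With a linear term for mg/kg in place of the rank, 19 of the 33 members fell in liver, where 4.47% of all genes fell. They were Jchain, Clec4a3, Cd53, Laptm5, Coro1a, Ptprc, Csf1r, Cd48, Itgb2, Lcp1, Cd68, C1qa, Adgre1, Ctss, Cd163, Clec4f, Tyrobp, Lyz2 and Cybb, with limma adjusted p between 0.000297 and 0.0470. None was a T cell gene, and Jchain was the only gene of B lineage cells. The other lymphocyte genes tested had control means from 4.51 (Cd3e) to 5.17 (Cd79b). These lie near the 40th percentile of the liver arrays (4.61 to 4.71), and the part of this in the missing calls was not tested. Pan-leukocyte genes among the 19, such as Ptprc, are shared with lymphocytes. The rank spaces 0.1, 1, 10 and 100 mg/kg evenly, whereas the linear term sets these doses close to control. In neither organ was the linear fit repeated with arrays left out, array weights or the replicate block.

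In kidney, most members had lower means at 500 mg/kg than in controls, but 0 of the 29 tested passed limma's adjusted test, where 0.0268% of all genes did. At an unadjusted p under 0.05, 5 were lower and 0 higher, against 3.25% of all genes lower: Cybb, Adgre1, Ptprc, Itgb2 and Clec4a3. The median log2 difference was -0.11, with 26 of 29 below 0, and the median over all 11194 genes was 0.016. For Cybb, Adgre1 and Clec4a3 the 4 dosed arrays lay below all controls, as for 1.13% of all genes. Without the array at 500 mg/kg that was rich in adipose transcripts the median was -0.07, and without array 4 at that dose it was -0.20. Without the adipose-rich array and its counterpart at 300 mg/kg 24 of 29 were below 0 and 2 lower at an unadjusted p under 0.05. The median over all genes in that fit was 0.018, and the share of all genes at such a p was not computed.

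Cybb read 8.34, 8.18, 8.32, 8.24 and 8.19 in kidney controls and 7.95, 7.79, 7.76 and 8.08 at 500 mg/kg. The groups did not overlap, with a log2 difference of -0.36 (SE 0.09, limma adjusted p = 0.0918). Its second probe set differed by -0.25 (SE 0.12). Adgre1 read 5.46, 5.79, 5.46, 5.77 and 5.45 in controls and 5.39, 4.84, 4.82 and 5.37 at 500 mg/kg, a log2 difference of -0.48 (SE 0.14, limma adjusted p = 0.190). Arrays 2 and 3 were the low ones, and arrays 1 and 4 lay just under the lowest control.

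Ptprc read 6.76, 6.46, 6.41, 6.48 and 6.56 in kidney controls and 6.29, 5.98, 5.96 and 6.52 at 500 mg/kg, a log2 difference of -0.35 (SE 0.12, limma adjusted p = 0.323). Clec4a3 read 6.31, 6.16, 6.34, 6.13 and 6.21 in controls and 6.11, 5.65, 5.93 and 6.08 at 500 mg/kg, a log2 difference of -0.29 (SE 0.13, limma adjusted p = 0.497). Itgb2 read 6.68, 6.74, 6.88, 6.93 and 6.67 in controls and 6.55, 6.63, 6.33 and 6.82 at 500 mg/kg, a log2 difference of -0.20 (SE 0.09, limma adjusted p = 0.491). Dosed array 4 overlapped the controls in Ptprc and Itgb2, and in Clec4a3 all dosed arrays were below them. The second probe set of Ptprc did not pass the filter in kidney. Cd14 was again above 0, at 0.31 (SE 0.18, limma adjusted p = 0.594).

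At 300 mg/kg in kidney 0 of 29 members passed, where 0.0268% of all genes did, and at 0.1, 1, 10 and 100 mg/kg 0 passed, as did 0% of all genes at each dose. At an unadjusted p under 0.05 there was 1 member of 29 at 300 mg/kg, against 5.74% of all genes. The members numbered 0, 1, 1 and 2 at the lower doses in rising order, against 8.15%, 9.34%, 6.27% and 4.8% of all genes, near or below the background at each. The median difference at 300 mg/kg was 0.08, and it became -0.0033 without array 3, the one with the highest adipose transcripts. Over the dose rank 0 of 29 members passed, with 0.152% of all genes called, and 4 sloped down at an unadjusted p under 0.05, against 4.28% of all genes. These were Adgre1 (-0.08 per rank, SE 0.02, limma adjusted p = 0.0864), Cybb (-0.05, SE 0.01, adjusted p = 0.108), Ptprc (-0.05, SE 0.02) and Clec4a3 (-0.04, SE 0.02). Adgre1 was called without control array 3. With the linear term for mg/kg, 3 of 29 fell in kidney (Cybb, Ptprc and Clec4a3), where 0.884% of all genes fell.

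**Figure D4:**
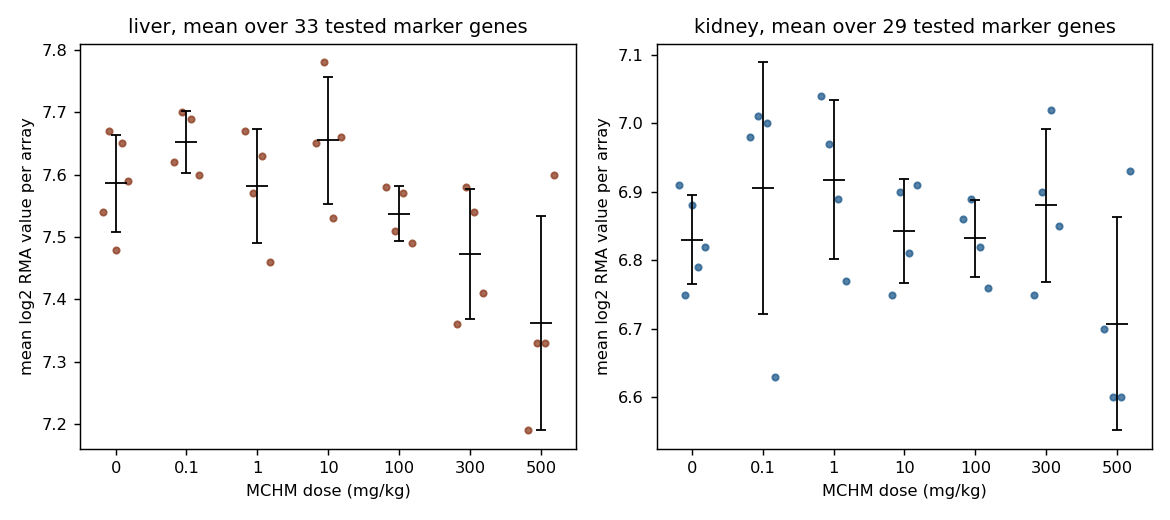
Each point is the mean log2 RMA value over the tested marker genes on an array (33 genes in liver, 29 in kidney), plotted against MCHM dose in mg/kg, with mean ± SD bars (n = 5 at dose 0, n = 4 at the others). In liver 3 of the 4 arrays at 500 mg/kg (7.19, 7.33 and 7.33) lie below every control, and in kidney array 4 at 0.1 mg/kg (6.63) lies below the other 3.

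The difference between the organs' responses was tested directly, by subtracting the kidney effect from the liver effect in a fit over all 58 arrays that treats the arrays of both organs as independent. Of the 29 members tested in both organs 0 passed at 300 mg/kg, where 0% of all genes did, and 0 passed at 500 mg/kg, where 0.122% did. At 500 mg/kg the median of the members was -0.12, with 22 of 29 below 0. Without the 2 adipose-rich kidney arrays it was -0.18, with 25 of 29 below 0 and 5 of them at an unadjusted p under 0.05. The median over all genes in that fit was -0.011, and the share of all genes at such a p was not computed. With all arrays 3 members had an unadjusted p under 0.05, where 8.55% of all genes did: Jchain differed by -0.79 (SE 0.31, limma adjusted p = 0.413), Ms4a1 by 0.52 (SE 0.21, adjusted p = 0.431) and Cd3e by 0.38 (SE 0.16, adjusted p = 0.482). At 300 mg/kg, where 5.49% of all genes had such a p, they were Csf1r (-0.45, SE 0.14, adjusted p = 0.630) and Tyrobp (-0.33, SE 0.13, adjusted p = 0.807). With all arrays, the counts at both doses were near the shares of all genes. The falls called in liver were therefore not shown to differ from the kidney values. Adgre1 had nearly the same value at 500 mg/kg in liver (-0.43) and in kidney (-0.48).

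**Figure D5:**
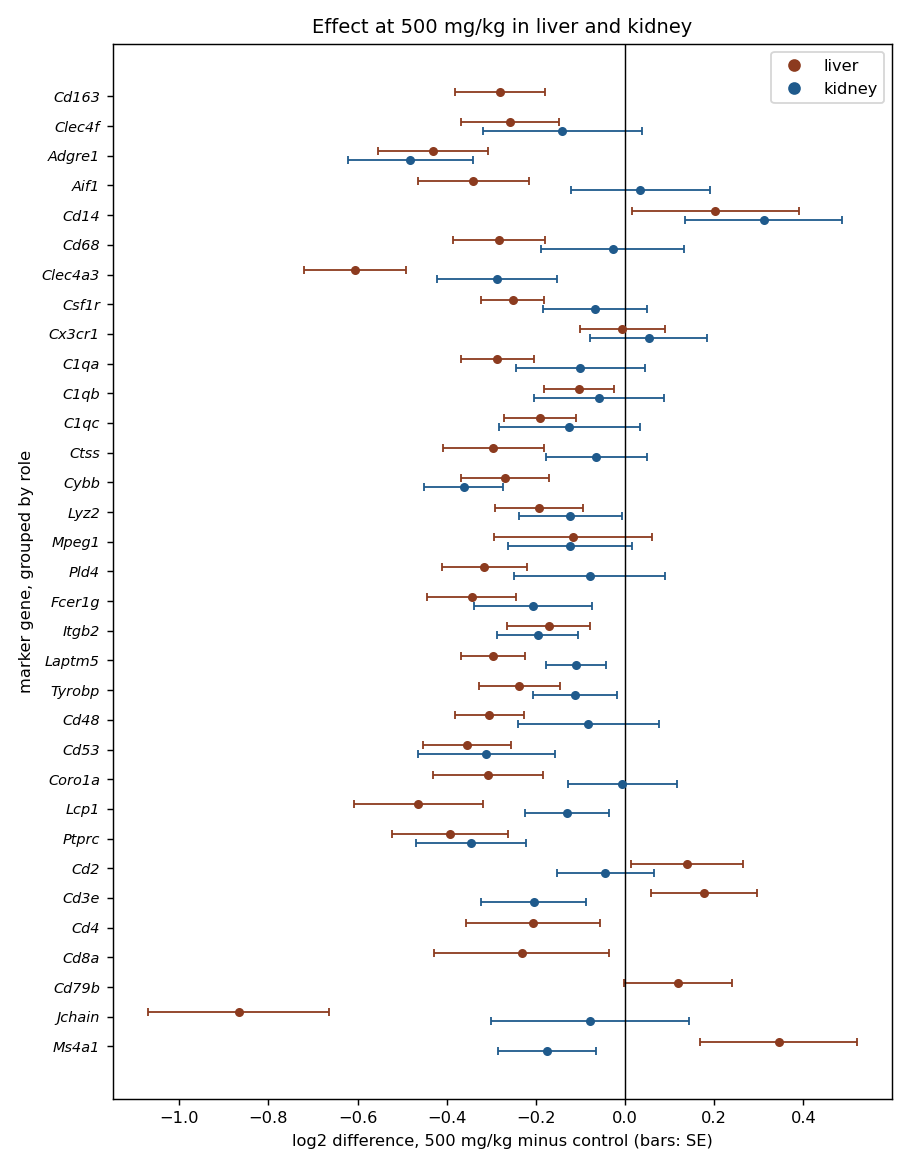
Points give the log2 difference between 500 mg/kg (n = 4) and control (n = 5) in liver and in kidney for each marker gene, grouped by role, with SE bars from the fit. Jchain in liver (-0.87) lies farthest to the left, and Cd14 is above 0 in both organs (0.20 and 0.31).

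The members were also compared with each other array by array, after the mean of each dose group had been removed, to see which varied together within a group. C1qa and C1qb, chains of a single protein, had a Pearson r of 0.77 and a Spearman rho of 0.73 over 29 liver arrays (permutation p = 5e-05, adjusted p = 0.00025 over 10 relations) and 0.85 and 0.88 in kidney (permutation p = 1e-05, the smallest that 100000 resamples can give, adjusted p = 0.0001). Without the 2 arrays farthest from the median of C1qa, r was 0.72 and 0.81. Ptprc and Cd53 had r = 0.65 and rho = 0.63 in liver (permutation p = 0.00037, adjusted p = 0.00123), with r = 0.64 without the 2 farthest arrays. In kidney they had r = 0.59 and rho = 0.52 (permutation p = 0.00655, adjusted p = 0.0164). Without the 2 farthest kidney arrays r was weaker, at 0.36 (permutation p = 0.119). Leaving out arrays extreme in a gene also narrows its range, so this does not show that the relation rests on them.

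Csf1r and Cd68 had r = 0.48 and rho = 0.41 in liver (permutation p = 0.0503, adjusted p = 0.0839; r = 0.58 without the 2 farthest arrays). In kidney r was 0.49 and rho 0.45 (permutation p = 0.0202, adjusted p = 0.0405), and r was weaker, at 0.35, without the 2 farthest arrays (permutation p = 0.125). The adjusted p of the kidney rho was 0.0545. Lymphocyte pairs did not pass: Ms4a1 and Cd79b had r = 0.34 and rho = 0.36 in liver (permutation p = 0.0816, adjusted p = 0.117) and r = -0.08 and rho = -0.05 in kidney (permutation p = 0.739, adjusted p = 0.821). In kidney Cd79b lay below the filter. The T cell genes Cd3g, which lay below the filter, and Cd2 had r = 0.01 and rho = -0.02 in liver (permutation p = 0.961, adjusted p = 0.961) and r = -0.15 and rho = -0.15 in kidney (permutation p = 0.419, adjusted p = 0.524). As a description, the median r over the 325 pairs of myeloid and pan-leukocyte members was 0.46 in liver, against 0.03 over 21 pairs of lymphocyte members and 0.01 over all pairs of genes tested. In kidney the same medians were 0.45, 0.12 and 0.03. Most lymphocyte members lay near the filter, and the part of this in their medians was not tested. Genes on an array share the RNA sample and its normalization, so these pairs are not independent.

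Other genes of the same cells were taken from lists, again described by counts. The shares of all genes called lower in liver are those given above, 0.471% at 500 mg/kg and 1.17% over the dose rank. In liver at 500 mg/kg 1 of 22 other macrophage genes fell: Maf, a transcription factor of resident macrophages, by 0.43 (SE 0.09, limma adjusted p = 0.0134). Their median was -0.12. The macrophage mannose receptor Mrc1 and the iron exporter Slc40a1 fell with the dose rank, together with Maf (adjusted p = 0.0154, 0.0205 and 0.0126). Of 14 other lymphocyte genes 0 fell at 500 mg/kg (2 at an unadjusted p under 0.05, Il7r at -0.40 and Prf1 at -0.37), and Prf1, the perforin of cytotoxic cells, fell with the dose rank (adjusted p = 0.0471).

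Of 22 ligands and chemokines that recruit or sustain these cells, 1 fell at 500 mg/kg: Ccl5, a chemokine for T cells and monocytes, by 0.60 (SE 0.14, limma adjusted p = 0.0311). Cxcl9, an interferon-induced chemokine, fell with the dose rank beside Ccl5 (adjusted p = 0.0382 and 0.0205). Of 8 class II genes 2 fell at 500 mg/kg, the invariant chain Cd74 by 0.59 (SE 0.14, adjusted p = 0.0373) and RT1-Db1 by 0.57 (SE 0.14, adjusted p = 0.0407), with a list median of -0.40. In kidney at 500 mg/kg 0 genes of these 4 lists passed (18, 10, 17 and 8 genes tested in that order; 2 lymphocyte or class II genes lower and 2 chemokine or class II genes higher at an unadjusted p under 0.05), and Ccl21, a lymphoid chemokine, stood at 0.81 (SE 0.17, limma adjusted p = 0.0774).

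Markers of other cells had the following values beside the liver result, and their part in it was not tested. 1 of 9 hepatocyte genes fell at 500 mg/kg, Apoa1 by 0.30 (adjusted p = 0.0245), and 5 of the 9 were lower at an unadjusted p under 0.05. The mean over the 9 lay between 13.44 and 13.48 on the dosed arrays and between 13.51 and 13.57 on controls, with no overlap. Of 12 stellate cell and fibroblast genes 0 passed (median -0.15), of 11 endothelial genes 0 (median -0.08), of 4 neutrophil and mast cell genes 0 (median -0.13), of 3 bile duct genes 0 (median -0.20) and of 3 erythroid genes 0 (median -0.19), with overlapping list means in each case. Of 7 adipose genes 0 passed, with a median of 0.18 and list means from 6.36 to 6.71 at 500 mg/kg and from 6.19 to 6.43 in controls. In kidney at 500 mg/kg the adipose median was 0.89, with list means from 5.47 to 10.53 against 5.51 to 6.28 in controls.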

How the data were processed

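Liver and kidney RNA of 58 samples was hybridised to Affymetrix Rat Genome 230 2.0 arrays. The authors deposited log2 values made with RMA, per the submitters' processing notes. That the scale is log2 was inferred from their span, 1.75 to 14.85. Groups came from the sample titles. Probe sets were named by the platform annotation: 20826 had 1 symbol, 436 several and 9780 none, and 57 were controls.

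Members and lists were chosen with earlier results of these data known. Probe sets were kept if 4 or more arrays of an organ had them above the array's 40th percentile, and the brightest stood for a gene, giving 11264 genes in liver and 11194 in kidney. Tests used limma 3.58.1 in R 4.3.3 (lmFit, then eBayes with trend), in separate fits for the organs and a joint fit for organ contrasts. P-values are two-sided and Benjamini-Hochberg adjusted. Correlations used 100000 permutations within dose groups. The number of arrays limits precision; RNA from separate animals is implied by the label of biological replicate.

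Values are given array by array for members called at a dose or over the dose rank, for the 4 smallest p per organ at 500 mg/kg and over the dose rank, and for 1 member of each other role group; members called only between control organs are given by their range or difference, a departure from the written rule. From each other list the text names called genes or a selection of the 2 with the smallest p. Same-numbered arrays correlated at -0.23 to 0.23 in liver and at -0.36 to 0.44 in kidney, with 6 and 3 of 24 pairs over 0.1. The main fits did not use the numbers, and whether a number marks a batch within an organ was not tested. Fits were checked on simulated data with known changes. Alternatives were filters, probe set rules, quantile normalization, compared groups alone, array weights, the replicate block, a term in mg/kg and each array left out; leaving out 2 adipose-rich kidney arrays and blocking by number across organs were chosen after seeing the data.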

Additional observations from a re-analysis of the deposited data

Results flagged for a closer look

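In 42 groups of arrays the highest and lowest values were set against the gap that separates an outlying sample in about 1 group in 20, and 2 groups passed it where 2.1 would be expected by chance. In liver at 500 mg/kg array 4 read 7.27 for Cd163, the other 3 between 7.0 and 7.02. In kidney at 0.1 mg/kg the mean over the 29 marker genes was 6.63 on array 4, the other 3 between 6.98 and 7.01.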

How the results depend on the processing

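Of 33 liver members at 500 mg/kg, 4 were called; the count was 2 with no filter, with the mean over probe sets and with all probe sets, 1 with the compared groups alone, 1 with the replicate block, and between 1 and 9 with an array left out. Over the liver dose rank the 5 calls became 3 with the replicate block, 19 with a term in mg/kg, and between 3 and 7 with an array left out. In kidney the 0 calls became 1 at 500 mg/kg with quantile normalization (Cybb, adjusted p = 0.0474), and over the dose rank 1 with array quality weights, 3 with a term in mg/kg and between 0 and 1 with an array left out. The member median in kidney at 300 mg/kg, 0.08, was -0.0033 without the 2 adipose-rich arrays and between -0.0033 and 0.11 with an array left out; at 500 mg/kg it was between -0.20 and -0.07, and in liver at 300 mg/kg between -0.17 and -0.08.

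Over all genes, the 108 calls in liver at 500 mg/kg became 65 with the compared groups alone, 263 with array quality weights, 33 with the replicate block and between 42 and 110 with an array left out. The 208 over the liver dose rank became 813 with a term in mg/kg and between 80 and 255. The 17 over the kidney dose rank became 32 with quantile normalization, 45 with weights, 6 with the replicate block, 185 with a term in mg/kg, 0 without the adipose-rich arrays and between 0 and 54. The 13 for liver minus kidney at 500 mg/kg became 25 with the stricter filter, 0 with the compared groups alone, 85 with weights, 5 without the adipose-rich arrays, 37 with same-numbered liver and kidney arrays as a random block and between 4 and 54. That block was chosen after seeing the data. Liver and kidney arrays of the same dose and number deviated together in 21 of 29 pairs (correlation over 0.1, median 0.16), and 27 of 29 liver arrays correlated best with the kidney array of their own number, a hint from the data that they share animals. With the block 0 of 29 members passed for liver minus kidney at 300 or 500 mg/kg, and 29 of 33 passed between control organs, where 9230 of 11788 genes did. The cause was not tested.

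Without the 2 farthest arrays r was -0.12 for Cd3g and Cd2 in liver and 0.0026 for Ms4a1 and Cd79b in kidney. The longer promoter motif stood in 3 windows, the core in 17. Clec4a3 at 500 mg/kg in liver was called in 6 of 8 alternatives, not with the compared groups alone or the replicate block (its adjusted p reached 0.055), and over the dose rank in 8 of 8. At 500 mg/kg Jchain was called in 7 of 8, Laptm5 and Cd48 in 3 of 8 each. The log2 difference kept its sign in each, where the alternative with all probe sets reads a gene by its brightest one. The second probe set of Jchain stood at 0.10 at 500 mg/kg in liver. With an array left out the Jchain call at that dose held in 3 of 9 fits.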
